A study of Homo sapiens with 480 samples.

Results

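The 50 genes described here act when a cell passes from the end of DNA replication through mitosis. They were taken by name from a list of G2 and M phase genes, and all 50 were found among the 20302 features of the deposited table. In G2 the cell makes the cyclins and kinases that start mitosis. In M phase the chromosomes condense, attach to the spindle through their kinetochores and are held by the spindle checkpoint until every chromosome is attached, after which the cell divides. Transcripts of these genes build up late in the cell cycle and are low in resting cells, so they are widely used to mark dividing cells.

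The genes were measured by full-length cDNA sequencing of single sorted cells in a cell model of HIV latency, spread over 5 plates of 96 wells in 2 experimental batches. The groups were J-Lat A2 cells with 1 uM SAHA (vorinostat, which inhibits histone deacetylases), with 1 ug/mL PMA (a phorbol ester that switches on protein kinase C) or with 0.1% v/v DMSO, the vehicle, and Jurkat cells with the same 3 exposures, all for 24 h. Jurkat cells are a line grown from a human T cell leukaemia. J-Lat A2 is a single clone derived from it in which an HIV-based construct sits in the genome and is mostly silent, so a difference between the lines is a difference between 1 clone and its parent line.

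Of 480 wells 410 were kept, and 66 of the 70 left out were J-Lat A2 wells with SAHA. The kept wells numbered 67 in the first batch and 68 in the second for J-Lat A2 with SAHA, 79 with PMA and 94 with DMSO, and 36, 36 and 30 for Jurkat with SAHA, PMA and DMSO. Their totals ran from 19756 to 984418 counts, with a median of 514679. The median mitochondrial share of counts was 4.93%, 3.96% and 3.60% in J-Lat A2 with SAHA, PMA and DMSO, and 4.51%, 3.67% and 3.42% in Jurkat. The part of depth and mitochondrial share in the results below was not tested. All 10 T cell markers were detected, with a summed level of 556.8 to 4795 counts per 1000000 (CPM) over sums of wells. The B cell marker MS4A1 and the myeloid marker CSF1R were at 0, while CD79A, a B cell receptor subunit, had 0.312 to 88.9 CPM.

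Many genes of this class share a promoter element, the cell cycle homology region (CHR), to which the DREAM and MMB complexes bind, together with CCAAT boxes bound by NF-Y. RefSeq promoters (GRCh38.p14, 250 bases before to 50 after each start) were matched for 42 of the 50 genes. Not matched were HMGB2, TPX2, TTK, UBE2C, CDCA2, ANP32E, AURKA and BIRC5. The 120 bases before the start are shown for 6 of them: CKS2, HMMR and CDC20, which rose with SAHA in both lines; CDK1 and CCNB2, which were called in neither; and TMPO, the single member that fell with SAHA. They read 5′ to 3′ on the strand of the gene, and capitals mark TTTGAA (the CHR core) and CCAAT, each on either strand. In HMMR a CCAAT overlaps its reverse complement and 2 copies of TTTGAA stand in tandem. For CDK1 and TMPO the table holds 2 starts. For CDK1 the one with TTTGAA nearest to it is shown, and for TMPO, with none at either, the one listed first.
CKS2 (chr9:89311075-89311194): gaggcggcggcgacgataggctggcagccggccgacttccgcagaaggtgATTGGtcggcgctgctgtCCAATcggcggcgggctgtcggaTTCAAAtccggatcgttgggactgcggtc
HMMR (chr5:163460512-163460631): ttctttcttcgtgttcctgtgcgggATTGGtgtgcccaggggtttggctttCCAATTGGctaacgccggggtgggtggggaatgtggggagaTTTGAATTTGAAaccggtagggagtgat
CDC20 (chr1:43358861-43358980): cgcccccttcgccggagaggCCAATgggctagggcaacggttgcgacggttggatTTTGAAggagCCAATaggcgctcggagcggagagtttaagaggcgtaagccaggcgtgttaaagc
CDK1 (chr10:60778358-60778477): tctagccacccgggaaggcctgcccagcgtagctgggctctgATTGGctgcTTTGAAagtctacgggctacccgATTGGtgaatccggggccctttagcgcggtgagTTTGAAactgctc
CCNB2 (chr15:59105026-59105145): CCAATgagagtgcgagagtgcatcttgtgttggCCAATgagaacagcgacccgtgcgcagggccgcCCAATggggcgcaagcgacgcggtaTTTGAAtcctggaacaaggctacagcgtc
TMPO (chr12:98515453-98515572): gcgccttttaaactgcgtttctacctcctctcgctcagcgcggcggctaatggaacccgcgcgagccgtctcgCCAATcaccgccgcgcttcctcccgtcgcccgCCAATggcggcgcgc

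TTTGAA was found in 30 of the 42 promoters (71.4%), against 15.9% of the promoters of 15306 measured genes. It was found in 65.9% of 41 promoters of other G2 and M genes and in 8% of 25 promoters of S phase genes. Where a member held it, the copy nearest to the start began at a median of 23 bases before it (position -23). CCAAT was found in 73.8% of member promoters against 42.5% of measured genes, and in 68% of the S phase genes. Both motifs stood in 57.1% of member promoters and 6.68% of those of measured genes. Members that rose with SAHA in J-Lat A2 held TTTGAA in 18 of 24 promoters and the other members in 12 of 18. The TMPO promoter shown has CCAAT but no TTTGAA. These matches describe letters and not bound sites.

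Summed over the 50 genes, the level was higher with SAHA and lower with PMA than with DMSO on every shared plate. In J-Lat A2 the sum was 19638 ± 1657 CPM with SAHA (SD, n = 5 plates), 8456 ± 2450 CPM with PMA (n = 3 plates) and 10908 ± 1504 CPM with DMSO (n = 5 plates). In Jurkat it was 24959 ± 2942 CPM with SAHA (n = 3 plates), 6050 ± 1270 CPM with PMA (n = 3 plates) and 11794 ± 3871 CPM with DMSO (n = 5 plates). The SAHA plates lay above all DMSO plates in both lines. The PMA plates lay below all DMSO plates in Jurkat (4964 to 7447 CPM against 8364 to 17893 CPM) and overlapped them in J-Lat A2 (5875 to 10750 CPM against 9618 to 13287 CPM). Within a plate, the ratio to DMSO in J-Lat A2 had a median of 1.94 with SAHA (1.45 to 2.16) and 0.809 with PMA (0.611 to 0.907). In Jurkat it had a median of 2.49 with SAHA (1.45 to 2.59) and 0.454 with PMA (0.321 to 0.89). Jurkat plates with DMSO held 6 wells each, and their sums varied most. SAHA and PMA in a line were set against the same DMSO wells. In sums, fewer cells of a type and less RNA per cell cannot be told apart. Counts were not divided by gene length, so the sum leans on genes with many reads: HMGB2 gave 8.93% of it, CCNB1 7.32% and TOP2A 4.92%.

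**Figure D1:**
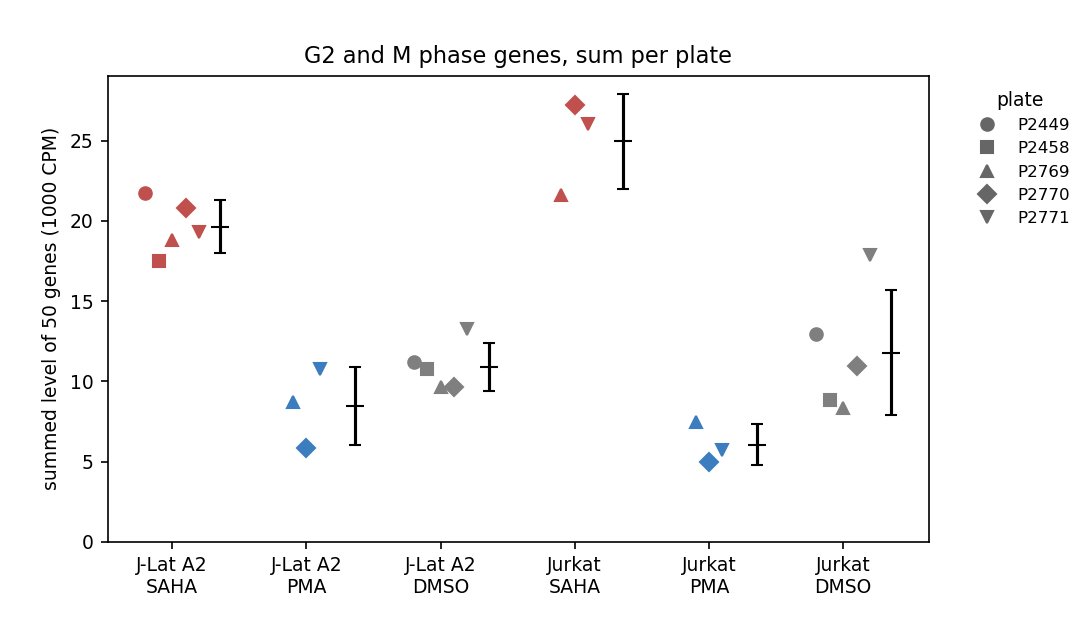
Summed level of the 50 genes in each plate (y axis, 1000 CPM) for the 6 groups, with 1 mark per plate and black marks for the mean ± SD over plates. The SAHA plates lie at 17528 CPM or more, above every J-Lat A2 DMSO plate, and the Jurkat PMA plates lie at 7447 CPM or less.

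The differences were tested for each gene on sums of wells per group and batch with the edgeR quasi-likelihood test, adjusted by Benjamini-Hochberg over 13560 genes and called at an adjusted p under 0.05. With SAHA, 28 of the 50 genes rose and 1 fell in J-Lat A2, where 3.53% of all tested genes rose and 4.9% fell. In Jurkat 23 rose and 0 fell, where 1.84% of all tested genes rose and 2.37% fell. For falls in Jurkat, 1 member had an unadjusted p under 0.05 and DESeq2 called 1, beside 739 falls over all 13560 genes. The median log2 change of the members was 1.00 in J-Lat A2 and 1.08 in Jurkat, beside 0.12 and 0.11 over all tested genes. The change was above 0 for 46 and 47 of the 50 members. All 23 genes that rose in Jurkat also rose in J-Lat A2 (82.1% of the 28), and the other 5 were CDC25C, DLGAP5, ECT2, KIF23 and NUF2. No member differed between the lines in its response to SAHA by the edgeR test of that difference (0 called, with 0 also by DESeq2; 4 had an unadjusted p under 0.05, and the lowest after adjustment was 1.0), where 0.00737% of all tested genes were called. With equal weight per well, limma called 0 members in both lines, although 30 in J-Lat A2 and 33 in Jurkat had an unadjusted p under 0.05. The J-Lat A2 count fell to 9 without the second DMSO batch, 19 without the first and 16 in the second batch alone. CDCA2, CKAP2, CKS2, DLGAP5 and KIF20B were called in J-Lat A2 under each of the 14 alternatives other than equal weight, and the other 24 calls were lost under at least 1. In Jurkat the SAHA calls held under all 14 for 10 of 23 genes: BUB1, CDCA2, CDCA8, CKAP2, CKAP2L, CKS2, HJURP, NUSAP1, TOP2A and TTK.

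With PMA, every member called by edgeR against DMSO was lower, in both lines. In J-Lat A2 0 members rose and 3 fell, where 1.18% of all tested genes rose and 0.804% fell. In Jurkat 0 rose and 15 fell, where 1.17% of all tested genes rose and 1.11% fell. By DESeq2 0 rose in either line, beside 375 rises in J-Lat A2 and 389 in Jurkat over all 13560 genes. No member had a positive change at an unadjusted p under 0.05 in either line. The median log2 change was -0.38 in J-Lat A2 and -0.98 in Jurkat, beside 0.04 and 0.07 over all tested genes, and it was below 0 for 36 and 48 of the 50 members. BIRC5 and BUB1B fell in both lines (66.7% of the J-Lat A2 calls and 13.3% of the Jurkat calls). The difference between the lines in the response to PMA was above 0 (J-Lat A2 less reduced) for 44 of 50 members, with a median of 0.62. It was called for 0 of them by edgeR, where 0.0221% of all tested genes were called, and the lowest adjusted value was 0.287 for DLGAP5. By edgeR 17 members had an unadjusted p under 0.05, and the share of all genes at that cut is not given. DESeq2 called 1 member, and over all 13560 genes it called 20 above 0 and 16 below 0. For PMA against DMSO, DESeq2 called 9 falls in J-Lat A2 and 29 in Jurkat, beside 367 and 479 over all 13560 genes. With equal weight per well limma called 0 (12 and 31 at an unadjusted p under 0.05). Leaving out 1 sum gave 0 to 7 calls in J-Lat A2: 1 without the first DMSO batch, 0 without the second, and 6 or 7 without the first or second SAHA batch. It gave 6 to 24 in Jurkat, with 6 without the second Jurkat DMSO batch and 24 without either J-Lat A2 SAHA batch. Under the 14 alternatives other than equal weight, 0 of the 3 J-Lat A2 calls and 5 of the 15 Jurkat calls (AURKB, BIRC5, CDC20, CDCA3 and DLGAP5) held throughout. The other 10 Jurkat calls, those of BUB1, BUB1B, CDCA8, CENPE, CKS1B, HMGB2, KIF23, NUF2, PLK1 and TACC3, were all lost without the second Jurkat DMSO batch (adjusted p of 0.0607 to 0.258, edgeR).

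**Figure D2:**
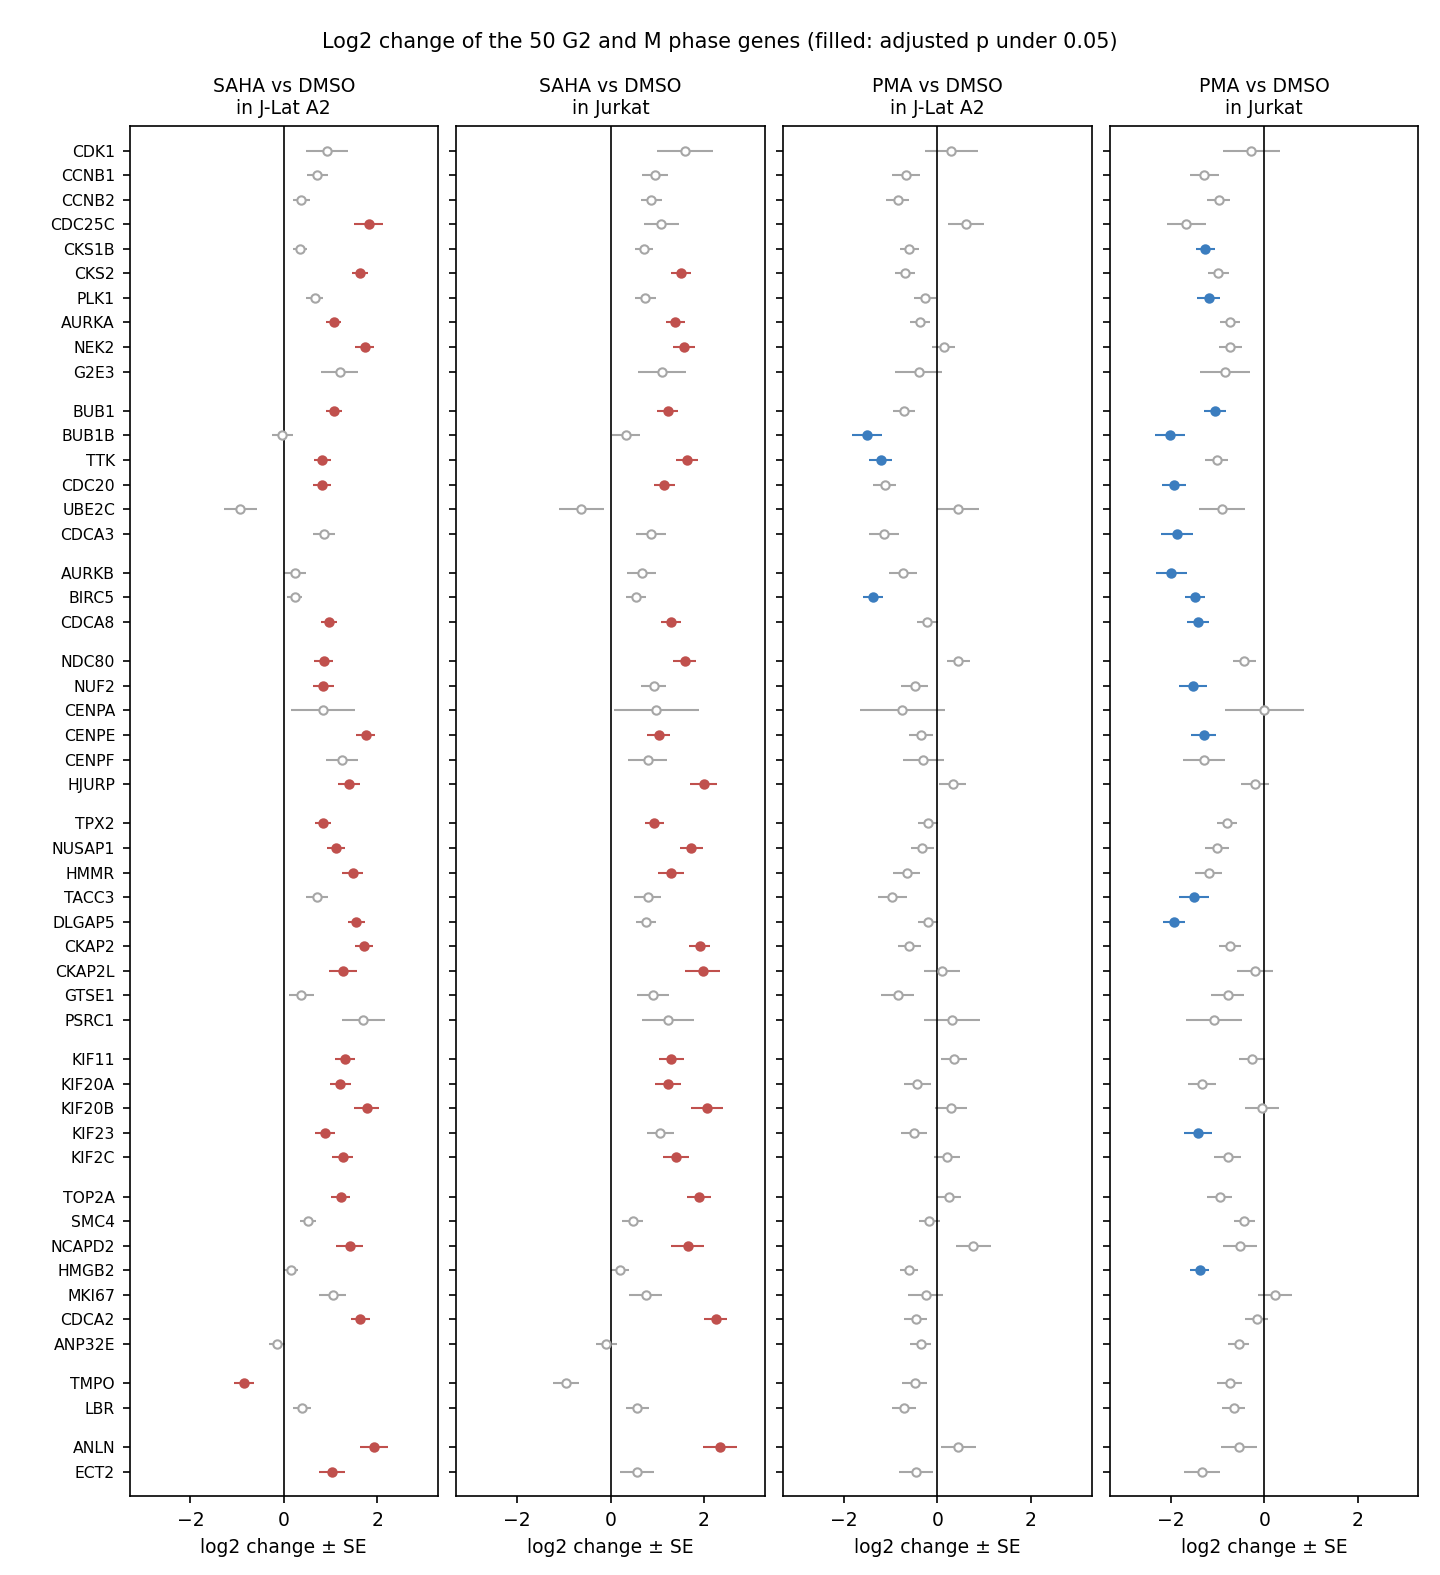
Log2 change ± SE of each of the 50 genes (rows, by role) in 4 panels, for SAHA and PMA against DMSO in J-Lat A2 and in Jurkat, with filled marks at an adjusted p under 0.05. Most marks lie right of 0 with SAHA (46 and 47 of 50) and left of 0 with PMA (36 and 48 of 50).

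A group of 10 genes held kinases, cyclins and a phosphatase of mitotic entry, with CKS1B, CKS2 and G2E3 placed beside them. Of these 10, 4 rose with SAHA in J-Lat A2 and 3 in Jurkat, and 2 fell with PMA in Jurkat. CKS2, a small protein that binds cyclin-dependent kinases (ENSG00000123975, chromosome 9, 89311198 to 89316703), had 846, 607, 1495, 1097 and 1167 CPM with SAHA, 288, 138.3 and 269.5 CPM with PMA and 274, 315, 340.4, 208 and 444 CPM with DMSO in the J-Lat A2 plates. Its Jurkat plates had 1727, 1283 and 1338 CPM with SAHA, 419, 175.6 and 197.8 CPM with PMA and 419, 256, 389, 469 and 673 CPM with DMSO. Each SAHA plate was above each DMSO plate of its line, whereas PMA and DMSO plates overlapped. The log2 change with SAHA was 1.64 ± 0.17 (SE, adjusted p = 0.000566) in J-Lat A2 and 1.51 ± 0.21 (SE, adjusted p = 0.00514) in Jurkat (edgeR). Its paralogue CKS1B did not pass with SAHA (0.35 and 0.71 on the log2 scale in J-Lat A2 and Jurkat) and fell with PMA in Jurkat (-1.26).

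CDK1, the kinase that drives entry into mitosis, was called in none of the comparisons with an agent. It had 636, 533, 1161, 1111 and 1143 CPM with SAHA, 552, 371 and 690.5 CPM with PMA and 517.99, 334, 249.4, 500.1 and 639 CPM with DMSO in J-Lat A2, where the groups overlapped. In Jurkat it had 1171, 1221 and 993 CPM with SAHA, 367, 146.9 and 472 CPM with PMA and 816, 244, 407, 83.5 and 183.8 CPM with DMSO. The Jurkat SAHA plates were all above the DMSO plates, which themselves ran from 83.5 to 816 CPM, and the change of 1.59 ± 0.60 (SE, adjusted p = 0.2) did not pass (edgeR). CCNB1, its cyclin partner, had 1669, 1465, 1193, 832 and 995.5 CPM with SAHA, 679, 215 and 645 CPM with PMA and 697, 787, 1116, 568.3 and 705.5 CPM with DMSO in J-Lat A2. In the Jurkat plates CCNB1 had 1657, 2232 and 2158 CPM with SAHA, 708, 322 and 276.5 CPM with PMA and 859, 771, 499, 1135 and 1982 CPM with DMSO. SAHA plates were mostly the highest and PMA plates mostly the lowest, with overlap in both lines. The edgeR changes of CCNB1 were 0.72 ± 0.23 (SE, adjusted p = 0.0887) with SAHA and -0.67 ± 0.30 (SE, adjusted p = 0.408) with PMA in J-Lat A2, and 0.95 ± 0.28 (SE, adjusted p = 0.0978) and -1.28 ± 0.30 (SE, adjusted p = 0.0615) in Jurkat.

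CDC25C, the phosphatase that activates CDK1, rose with SAHA in J-Lat A2 (edgeR log2 change 1.82 ± 0.31 SE, adjusted p = 0.00667) and was not called in Jurkat (1.09 ± 0.38 SE, adjusted p = 0.16). Its J-Lat A2 plates held 112.2, 54.1, 84.9, 83.9 and 79.6 CPM with SAHA, against 22.4, 29.4, 7.94, 15.1 and 54.4 CPM with DMSO. NEK2, a kinase of the centrosome, rose by 1.73 in J-Lat A2 and 1.58 in Jurkat on the log2 scale. AURKA, a kinase of the spindle poles, rose by 1.07 and 1.39, with 28.2% of its positive counts not whole, which marks reads shared between transcripts or genes. PLK1, a kinase needed at several steps of mitosis, did not pass with SAHA (0.66 and 0.74) and fell with PMA in Jurkat (-1.19). That PLK1 call was lost in the second batch alone, with plates as units (adjusted p = 0.502). The cyclin CCNB2 and G2E3, a ubiquitin ligase, were not called against DMSO either.

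Of the 6 genes of the spindle checkpoint and anaphase promoting complex, 3 rose with SAHA in each line, while 2 fell with PMA in J-Lat A2 and 4 in Jurkat. BUB1, a checkpoint kinase, had 972, 715.5, 711.7, 1073 and 824 CPM with SAHA, 213, 161.1 and 357 CPM with PMA and 483, 442, 202, 353 and 497 CPM with DMSO in J-Lat A2. Its levels in Jurkat were 595, 1367 and 1241 CPM with SAHA, 250.4, 220.2 and 211 CPM with PMA and 547, 279.5, 272, 516.2 and 643 CPM with DMSO. SAHA and DMSO plates did not overlap in J-Lat A2 but did in Jurkat, and in Jurkat the PMA plates were all below the DMSO plates. BUB1 rose with SAHA by 1.08 ± 0.17 (SE, adjusted p = 0.00528) in J-Lat A2 and 1.22 ± 0.22 (SE, adjusted p = 0.0142) in Jurkat, and its change with PMA in Jurkat was -1.06 ± 0.23 (SE, adjusted p = 0.0471) (edgeR).

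BUB1B, the related checkpoint protein BubR1 (ENSG00000156970, chromosome 15, 40161023 to 40221136, where the BUB1B-PAK6 readthrough gene overlaps it), fell with PMA in both lines and was not called with SAHA. In J-Lat A2 it had 220.2, 157.8, 125.2, 176.1 and 176.98 CPM with SAHA, 21.5, 64.8 and 96.6 CPM with PMA and 212, 158.1, 82.7, 159.3 and 241 CPM with DMSO. In Jurkat it had 98.7, 174.5 and 219.8 CPM with SAHA, 28.4, 19.5 and 53.9 CPM with PMA and 134.6, 71.5, 103.5, 80.5 and 273 CPM with DMSO. The PMA plates were all below the DMSO plates in Jurkat and overlapped them in J-Lat A2. The edgeR change with PMA was -1.51 ± 0.32 (SE, adjusted p = 0.0444) in J-Lat A2 and -2.03 ± 0.32 (SE, adjusted p = 0.0121) in Jurkat, and with SAHA -0.03 ± 0.23 (SE, adjusted p = 0.983) and 0.33 ± 0.29 (SE, adjusted p = 0.678). Without the first or second J-Lat A2 DMSO batch the adjusted p for PMA in J-Lat A2 was 0.0798 or 0.106, and without the second Jurkat DMSO batch it was 0.0789 in Jurkat.

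CDC20, which activates the anaphase promoting complex, separated all 3 exposures. It had 789, 908, 594, 764 and 628 CPM with SAHA, 255, 98.9 and 268 CPM with PMA and 352, 480.1, 565, 351 and 384 CPM with DMSO in J-Lat A2. The Jurkat plates had 1019, 1323 and 1390 CPM with SAHA, 172.5, 186.7 and 95.1 CPM with PMA and 454, 418, 400.3, 694 and 767 CPM with DMSO. No plate of 1 exposure overlapped another in either line. CDC20 rose with SAHA by 0.82 ± 0.19 (SE, adjusted p = 0.0237) and 1.15 ± 0.23 (SE, adjusted p = 0.0231) in J-Lat A2 and Jurkat and fell with PMA in Jurkat (-1.92 ± 0.26 SE, adjusted p = 0.00484), while PMA in J-Lat A2 gave -1.12 ± 0.25 (SE, adjusted p = 0.0544) (edgeR).

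TTK, the checkpoint kinase also called MPS1, rose with SAHA in both lines (0.82 and 1.64) and fell with PMA in J-Lat A2 (-1.21 ± 0.25 SE, adjusted p = 0.0406, edgeR). The TTK fall had an adjusted p of 0.0661 with no replicate block (the batch term left out) and of 0.0839 with plates as units. CDCA3, which helps to degrade the mitosis inhibitor WEE1, fell with PMA in Jurkat (-1.87 ± 0.34 SE, adjusted p = 0.0241, edgeR). UBE2C, the ubiquitin-conjugating enzyme of the anaphase promoting complex, was not called by edgeR in any contrast. Its log2 changes with SAHA were below 0, at -0.93 in J-Lat A2 and -0.62 in Jurkat. With PMA against SAHA in J-Lat A2 its change was above 0 (1.36 ± 0.44 SE).

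The 3 genes placed in the chromosomal passenger complex, which corrects faulty attachments to the spindle, all fell with PMA in Jurkat. They are not the whole complex. Its subunit INCENP, tested among the other G2 and M genes, was not called there (edgeR log2 change -0.28 ± 1.82 SE). That SE is too wide to show whether INCENP changed. BIRC5 (survivin) had 327, 404, 486, 346 and 327 CPM with SAHA, 142.4, 91.6 and 146.3 CPM with PMA and 294, 285, 274, 289 and 416 CPM with DMSO in J-Lat A2. In Jurkat BIRC5 had 412, 516.8 and 321 CPM with SAHA, 141.1, 112.3 and 63.1 CPM with PMA and 263, 295, 169.7, 320.1 and 338 CPM with DMSO. The PMA plates were below all DMSO plates in both lines, and its edgeR change with PMA was -1.37 ± 0.22 (SE, adjusted p = 0.012) in J-Lat A2 and -1.48 ± 0.22 (SE, adjusted p = 0.00836) in Jurkat. Without the second J-Lat A2 DMSO batch the call in J-Lat A2 was lost (adjusted p = 0.117).

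AURKB, the kinase of the complex, had 322, 332 and 316 CPM with SAHA, 60.7, 38.3 and 62.4 CPM with PMA and 263, 213, 122.6, 143.4 and 247 CPM with DMSO in Jurkat. Its J-Lat A2 plates had 183.3, 216, 288, 255 and 195.7 CPM with SAHA, 102.1, 82.1 and 146.2 CPM with PMA and 182.1, 187.4, 214, 98.2 and 227 CPM with DMSO. Low values with PMA stood clear of DMSO in Jurkat but not in J-Lat A2, and the edgeR change was -1.99 ± 0.33 (SE, adjusted p = 0.0149) in Jurkat against -0.74 ± 0.31 (SE, adjusted p = 0.363) in J-Lat A2. CDCA8 (borealin) was the single member of the complex that also rose with SAHA, by 0.96 in J-Lat A2 and 1.30 in Jurkat, and it fell with PMA in Jurkat (-1.42). The CDCA8 fall was lost with plates as units (adjusted p = 0.0697).

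Among the 6 kinetochore and centromere genes, 4 rose with SAHA in J-Lat A2 and 3 in Jurkat, and 2 fell with PMA in Jurkat. CENPE, a kinesin that moves chromosomes to the spindle centre, had 284, 182.7, 288, 283 and 368 CPM with SAHA, 124.7, 32.1 and 81.7 CPM with PMA and 63.7, 73.9, 88.9, 86.04 and 122.7 CPM with DMSO in J-Lat A2. In the Jurkat plates it had 249.1, 287 and 299.96 CPM with SAHA, 75.3, 62.4 and 32.05 CPM with PMA and 87.7, 90.1, 42.6, 68.9 and 317 CPM with DMSO. The SAHA plates were clear of DMSO in J-Lat A2, while in Jurkat 1 DMSO plate, P2771, was above all SAHA plates. The edgeR change with SAHA was 1.75 ± 0.20 (SE, adjusted p = 0.000868) in J-Lat A2 and 1.03 ± 0.24 (SE, adjusted p = 0.0452) in Jurkat, and with PMA in Jurkat -1.30 ± 0.26 (SE, adjusted p = 0.0352). Both Jurkat calls were lost with no replicate block, at adjusted p = 0.0637 for SAHA and 0.247 for PMA.

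HJURP, which deposits the centromeric histone CENPA, rose with SAHA in both lines (1.40 and 1.99), while CENPA itself, with 3046 counts in all kept wells, was not called (0.84 and 0.98). NDC80 and NUF2 are partners in the complex that grips microtubules. NDC80 rose with SAHA in both lines (0.85 and 1.59), and NUF2 in J-Lat A2 (0.85, against 0.92 in Jurkat, not called). NUF2 fell with PMA in Jurkat (-1.53). The NUF2 rise was lost with no replicate block (adjusted p = 0.0733). CENPF, a large kinetochore protein, had edgeR changes of 1.25 ± 0.34 (SE, adjusted p = 0.0539) and 0.79 ± 0.41 (SE, adjusted p = 0.38) with SAHA and passed in neither line.

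Spindle microtubule proteins rose with SAHA in 6 of 9 cases in J-Lat A2 and 5 of 9 in Jurkat. CKAP2, which promotes microtubule growth, had 678, 371, 631, 733 and 590.1 CPM with SAHA, 134.1, 118.3 and 123.3 CPM with PMA and 209, 148.8, 124.5, 159.03 and 220.1 CPM with DMSO in J-Lat A2. Its Jurkat values were 784, 1070 and 1007 CPM with SAHA, 192.1, 95.8 and 189.9 CPM with PMA and 235, 166.6, 179.05, 211 and 436 CPM with DMSO. SAHA plates were clear of DMSO plates in both lines, and PMA plates overlapped them. The rise was 1.72 ± 0.19 (SE, adjusted p = 0.000711) in J-Lat A2 and 1.91 ± 0.23 (SE, adjusted p = 0.00257) in Jurkat (edgeR).

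DLGAP5, which bundles microtubules near chromosomes, had 447, 300.02, 581, 585 and 519 CPM with SAHA, 230.2, 74.1 and 192.1 CPM with PMA and 141.1, 150.3, 137.7, 133.4 and 246 CPM with DMSO in J-Lat A2. In Jurkat DLGAP5 had 478, 605 and 652 CPM with SAHA, 110.8, 68.7 and 99.05 CPM with PMA and 271, 160.9, 89.3, 293 and 653 CPM with DMSO. The J-Lat A2 SAHA plates stood clear of DMSO, whereas in Jurkat the DMSO plates overlapped both the SAHA and the PMA plates. DLGAP5 rose with SAHA in J-Lat A2 (1.56 ± 0.17 SE, adjusted p = 0.000796) and fell with PMA in Jurkat (-1.93 ± 0.24 SE, adjusted p = 0.00325), with edgeR. Under DMSO it was the member nearest to a difference between the lines (J-Lat A2 against Jurkat, edgeR log2 change -0.89 ± 0.17 SE, adjusted p = 0.0749).

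HMMR, which helps to assemble the spindle, rose with SAHA by 1.48 and 1.30 in J-Lat A2 and Jurkat, CKAP2L by 1.28 and 1.97, and TPX2, the activator of AURKA, by 0.84 and 0.94. NUSAP1, a microtubule-binding protein, rose by 1.13 and 1.73, but 79.4% of its positive counts were not whole and another gene, AC087721.2, overlaps it, so its level is uncertain. TACC3, which stabilises spindle fibres, fell with PMA in Jurkat (-1.51). GTSE1 and PSRC1 were called nowhere against DMSO.

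All 5 kinesins rose with SAHA in J-Lat A2, and 4 of 5 in Jurkat. KIF20B, a kinesin of late mitosis, had 293, 153.9, 226, 304 and 340.3 CPM with SAHA, 71.3, 63.1 and 149.4 CPM with PMA and 75.5, 53.03, 54.6, 54.2 and 146.9 CPM with DMSO in J-Lat A2. In Jurkat KIF20B had 368, 261 and 395 CPM with SAHA, 102.9, 64.1 and 77.7 CPM with PMA and 119.996, 72.9, 43.04, 51.5 and 92.6 CPM with DMSO. No SAHA plate overlapped DMSO in either line, and the PMA plates did. The edgeR change with SAHA was 1.77 ± 0.28 (SE, adjusted p = 0.00439) in J-Lat A2 and 2.07 ± 0.35 (SE, adjusted p = 0.0118) in Jurkat. KIF11, which pushes the spindle poles apart, rose by 1.31 and 1.30, and KIF2C, which takes microtubules apart at kinetochores, by 1.26 and 1.40. KIF20A, needed for cytokinesis, rose by 1.21 and 1.23. KIF23, a kinesin of the central spindle, rose in J-Lat A2 (0.88) and was not called in Jurkat (1.07), where it fell with PMA (-1.41). The KIF23 rise was lost with plates as units (adjusted p = 0.0642).

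Of the 7 genes of chromosome condensation and topology, 3 rose with SAHA in each line. TOP2A, the topoisomerase that untangles sister chromatids (ENSG00000131747, chromosome 17, 40388516 to 40417950), had 1033, 834, 763, 1465 and 1478 CPM with SAHA, 501, 341 and 807 CPM with PMA and 513.2, 494, 168.5, 449 and 699 CPM with DMSO in J-Lat A2. Its Jurkat plates held 938, 1700 and 1597 CPM with SAHA, 123.1, 190.4 and 315 CPM with PMA and 524, 259, 311, 207 and 520.8 CPM with DMSO. All SAHA plates were above all DMSO plates, and the rise was 1.22 ± 0.20 (SE, adjusted p = 0.00603) in J-Lat A2 and 1.89 ± 0.25 (SE, adjusted p = 0.00411) in Jurkat (edgeR). With PMA its change was 0.24 ± 0.26 (SE, adjusted p = 0.835) in J-Lat A2 and -0.95 ± 0.27 (SE, adjusted p = 0.12) in Jurkat, not called in either.

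CDCA2, which directs a phosphatase to chromosomes as they exit mitosis, had 395, 278, 171.9, 400.0 and 363 CPM with SAHA, 68.2, 53.2 and 90.4 CPM with PMA and 114.6, 98.7, 67.7, 75.3 and 156.1 CPM with DMSO in J-Lat A2. In the Jurkat plates CDCA2 had 282, 330.1 and 289 CPM with SAHA, 115.5, 24.9 and 30.003 CPM with PMA and 89.8, 57.9, 33.3, 45.8 and 99.7 CPM with DMSO. The SAHA plates were clear of DMSO in both lines, with an edgeR change of 1.64 ± 0.20 (SE, adjusted p = 0.00117) in J-Lat A2 and 2.25 ± 0.25 (SE, adjusted p = 0.00215) in Jurkat. NCAPD2, a condensin subunit, rose by 1.41 and 1.65. HMGB2, a DNA-bending protein, did not pass with SAHA (0.16 and 0.20), and with PMA its edgeR change was -0.61 ± 0.20 (SE, adjusted p = 0.196) in J-Lat A2 and -1.38 ± 0.20 (SE, adjusted p = 0.00766) in Jurkat. The proliferation antigen MKI67, the condensin subunit SMC4 and the histone chaperone ANP32E were not called against DMSO in either line. Of the positive counts 40% were not whole for SMC4, 36.7% for HMGB2, 30.5% for CCNB1 and 28.7% for ANP32E.

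Neither of the 2 nuclear lamina genes was called higher with SAHA or PMA. TMPO, a lamina-associated protein, had 111.5, 83.2, 54.1, 116.8 and 52.03 CPM with SAHA, 87.5, 81.5 and 159.7 CPM with PMA and 156.3, 152.4, 42.2, 232 and 202 CPM with DMSO in J-Lat A2. In Jurkat TMPO had 78.5, 183.8 and 120.2 CPM with SAHA, 112.2, 176.9 and 177.98 CPM with PMA and 226, 264, 197.3, 243 and 367 CPM with DMSO. SAHA plates were below DMSO plates on 4 of 5 plates in J-Lat A2 and on all 3 shared plates in Jurkat. TMPO fell with SAHA in J-Lat A2 (-0.85 ± 0.21 SE, adjusted p = 0.0326, edgeR), and the change in Jurkat was -0.95 ± 0.27 (SE, adjusted p = 0.0925). The fall was lost with plates as units (adjusted p = 0.0501) and on leaving out either DMSO batch (0.13 and 0.215). LBR, the lamin B receptor, was not called (0.39 and 0.58 with SAHA).

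Both cytokinesis genes rose with SAHA in J-Lat A2, and ANLN, which scaffolds the contractile ring, rose in Jurkat as well. ANLN had 109.1, 97.1, 39.1, 248 and 182.7 CPM with SAHA, 21.6, 48.1 and 72.6 CPM with PMA and 35.3, 41.6, 0.397, 52.8 and 41.5 CPM with DMSO in J-Lat A2. In Jurkat ANLN had 71.8, 306 and 312 CPM with SAHA, 4.72, 27.1 and 70.6 CPM with PMA and 47.2, 39.3, 15.4, 41.6 and 66.4 CPM with DMSO. Each group had its lowest ANLN level on plate P2769, and SAHA stood above DMSO on every shared plate of both lines. The rise of ANLN was 1.93 ± 0.30 (SE, adjusted p = 0.00445) in J-Lat A2 and 2.34 ± 0.37 (SE, adjusted p = 0.00849) in Jurkat (edgeR). ECT2, which positions the ring, rose by 1.04 in J-Lat A2 and was not called in Jurkat (0.57). The ECT2 rise was lost with no replicate block (adjusted p = 0.0518).

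**Figure D3:**
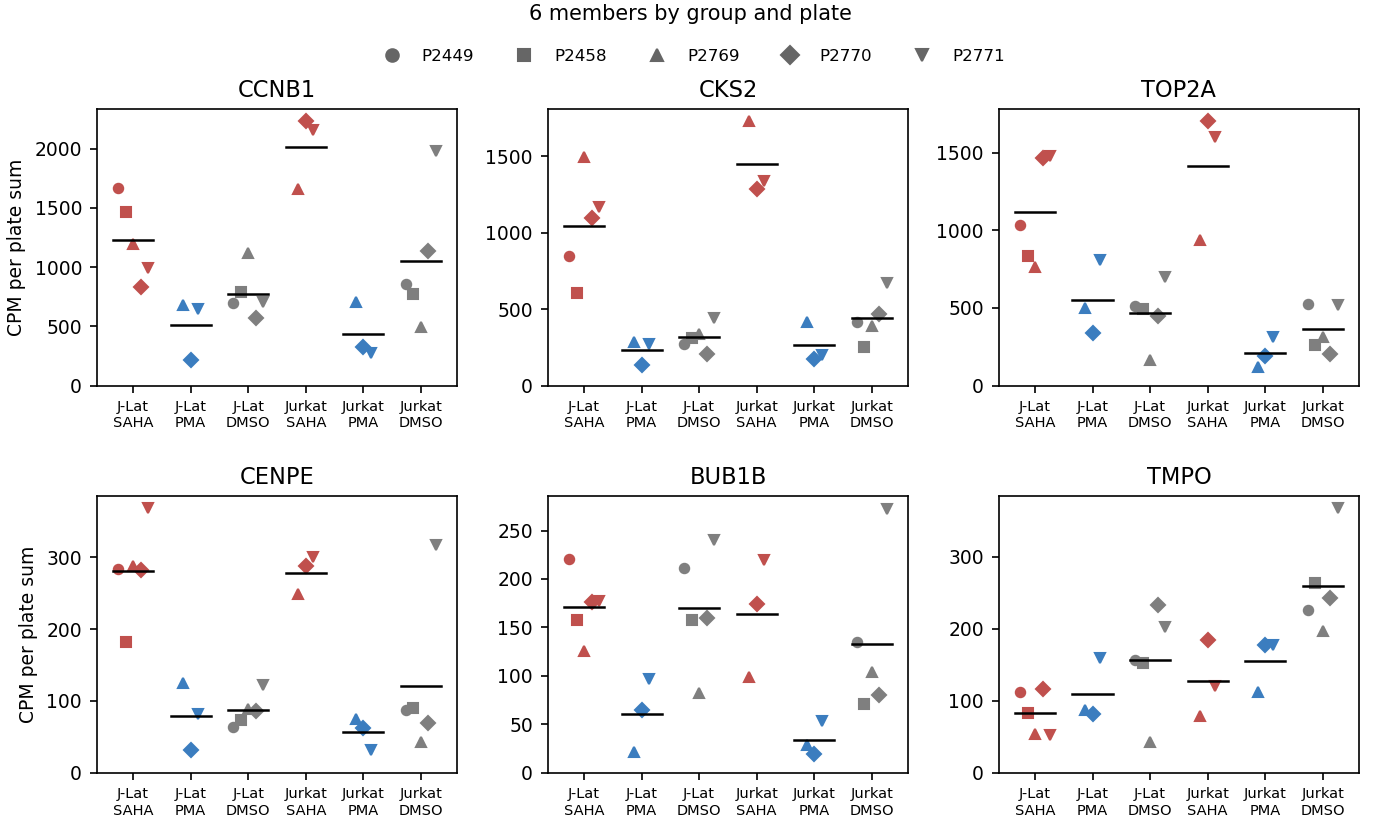
Level per plate (y axis, CPM, from 0) of CCNB1, CKS2, TOP2A, CENPE, BUB1B and TMPO in the 6 groups, with 1 mark per plate (its shape names the plate) and a black line at the mean over plates. CKS2 is at 607 CPM or more in every SAHA plate and BUB1B is at 96.6 CPM or less in every PMA plate, while CENPE in Jurkat with DMSO reaches 317 CPM on 1 plate.

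Set directly against SAHA in J-Lat A2, PMA gave lower levels of 24 members and a higher level of 0, where 1.37% of all tested genes were lower and 2.25% higher. At an unadjusted p under 0.05, 1 member was higher, and DESeq2 called 38 lower and 1 higher. The median log2 difference (PMA minus SAHA) was -1.38, beside -0.05 over all tested genes. CKS2 had the largest difference (edgeR, -2.33 ± 0.24 SE, adjusted p = 0.000503), followed by CKAP2 (-2.32), HMMR (-2.13), CENPE (-2.11), CDCA2 (-2.10) and TTK (-2.04). This comparison uses the same SAHA and PMA wells as those against DMSO. With equal weight per well, limma called 0 (32 at an unadjusted p under 0.05), and 12 of the 24 calls held under all 14 other alternatives.

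Between the lines under DMSO no member passed. In J-Lat A2 against Jurkat under DMSO, edgeR called 0 members (18 at an unadjusted p under 0.05, 14 of them lower in J-Lat A2), where 0.398% of all tested genes were called, and DESeq2 called 2 lower. The median log2 difference was -0.21, beside 0.06 over all tested genes.

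Other genes of the same phases, taken from a second list of 50 of which 49 were tested, were counted in the same way. With SAHA 11 rose and 1 fell in J-Lat A2, where 3.53% of all tested genes rose and 4.9% fell, and 10 rose and 0 fell in Jurkat, where 1.84% rose and 2.37% fell. DESeq2 called 16 rises and 1 fall in each line. Over all 13560 genes it called 971 rises and 1016 falls in J-Lat A2, and 557 and 739 in Jurkat. For falls in Jurkat 1 gene had an unadjusted p under 0.05 by edgeR. In J-Lat A2 the 4 largest called rises were those of the kinesin KIF14 (2.22), the cohesin protector SGO2 (2.04), the kinesin KIF18A (1.86) and TROAP (1.61). In Jurkat they were those of TROAP (2.18), KIF14 (2.13), the kinesin KIF4A (1.61) and KIF18A (1.54). ZWINT, a kinetochore protein, was the 1 that fell (-1.08 in J-Lat A2), and it was named after its value was seen. With PMA 1 fell in J-Lat A2, the central spindle protein PRC1 (-1.46), and 5 fell in Jurkat, where 0.804% and 1.11% of all tested genes fell. The falls in Jurkat included PBK (-2.14), the checkpoint protein MAD2L1 (-1.74), the cohesion factor CDCA5 (-1.59) and the cyclin CCNA2 (-1.52). DESeq2 called 4 falls with PMA in J-Lat A2 and 15 in Jurkat, beside 367 and 479 over all 13560 genes.

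Of 30 S phase genes 0 rose with either agent against DMSO in either line by edgeR. Over all tested genes 3.53% and 1.84% rose with SAHA and 1.18% and 1.17% with PMA in J-Lat A2 and Jurkat. A count of 0 of 30 lies near these shares. DESeq2 called 2 rises with SAHA and 1 with PMA in Jurkat and 0 in J-Lat A2. Over all 13560 genes it called 557 rises with SAHA and 389 with PMA in Jurkat, and 971 and 375 in J-Lat A2. At an unadjusted p under 0.05 the S phase genes above 0 numbered 1 and 2 with SAHA and 0 and 1 with PMA in J-Lat A2 and Jurkat. With SAHA 9 fell in J-Lat A2 and 7 in Jurkat by edgeR, where 4.9% and 2.37% of all tested genes fell. DESeq2 called 11 and 10 falls, beside 1016 and 739 over all 13560 genes. With PMA 2 fell in J-Lat A2 and 5 in Jurkat by edgeR, where 0.804% and 1.11% of all tested genes fell. Here DESeq2 called 7 and 11 falls, beside 367 and 479 over all 13560 genes.

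Single wells showed a spread that the sums hide. The module level of a well is the sum of its 50 genes in CPM. In J-Lat A2 with SAHA it ran from 2226 to 79886 CPM over all kept wells, with a median of 19448 and quartiles of 12889 and 25196. With PMA it ran from 282 to 42590 CPM over 79 wells, with a median of 3572 and quartiles of 1043 and 12401. With DMSO it ran from 1788 to 29556 CPM over 94 wells, with a median of 9704 and quartiles of 5789 and 14307. The upper quartile was 11.9 times the lower one with PMA, 1.95 times with SAHA and 2.47 times with DMSO.

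Jurkat wells showed the same order. With SAHA the level ran from 14308 to 30369 CPM over 36 wells (median 25165, quartiles 22940 and 28768). With PMA it ran from 574 to 28281 CPM over 36 wells (median 1833, quartiles 1217 and 5801), and with DMSO from 4161 to 25902 CPM over 30 wells (median 11424, quartiles 7129 and 15598). The quartile ratio was 1.25 with SAHA, 4.77 with PMA and 2.19 with DMSO. In CPM, the distance between the quartiles was larger with SAHA than with PMA in both lines.

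Wells below the lowest DMSO well of their line numbered 31 of 79 with PMA in J-Lat A2 (39.2%, 95% Clopper-Pearson interval 28.4 to 50.9%) and 25 of 36 in Jurkat (69.4%, 51.9 to 83.7%). With SAHA they numbered 0 of 67 first-batch and 0 of 68 second-batch wells in J-Lat A2, and 0 of 36 in Jurkat. The same kind of interval reached up to 2.7% over both batches in J-Lat A2 and up to 9.74% in Jurkat. These counts cover kept wells. Of the 66 J-Lat A2 SAHA wells left out, 60 had at least 1000 counts, and 1 of these was below the limit of 1788 CPM, at 600 CPM. These intervals cover counting error only. On plates P2769, P2770 and P2771 the shares with PMA were 42.3%, 40.7% and 34.6% in J-Lat A2 and 66.7%, 75% and 66.7% in Jurkat. The median depth of the low PMA wells was 470804 counts in J-Lat A2 and 510652 in Jurkat, beside 514679 over all kept wells. This class is a range cut from a score and not a cell type. Its limit was the lowest of 94 DMSO wells in J-Lat A2 (1788 CPM) and of 30 in Jurkat (4161 CPM). A minimum depends on the number of wells, so the shares of the 2 lines rest on different cuts and cannot be compared directly. The PMA wells nearest to the limit of 1788 CPM were at 1731 and 1866 CPM in J-Lat A2, and those nearest to 4161 CPM were at 3975 and 4211 CPM in Jurkat, with 5 and 4 wells within 20% of it. At the upper end, 95 J-Lat A2 wells with SAHA (70.4%) and 17 of 79 with PMA (21.5%) were above the upper quartile of DMSO. In Jurkat these were 32 of 36 with SAHA (88.9%) and 4 of 36 with PMA (11.1%).

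**Figure D4:**
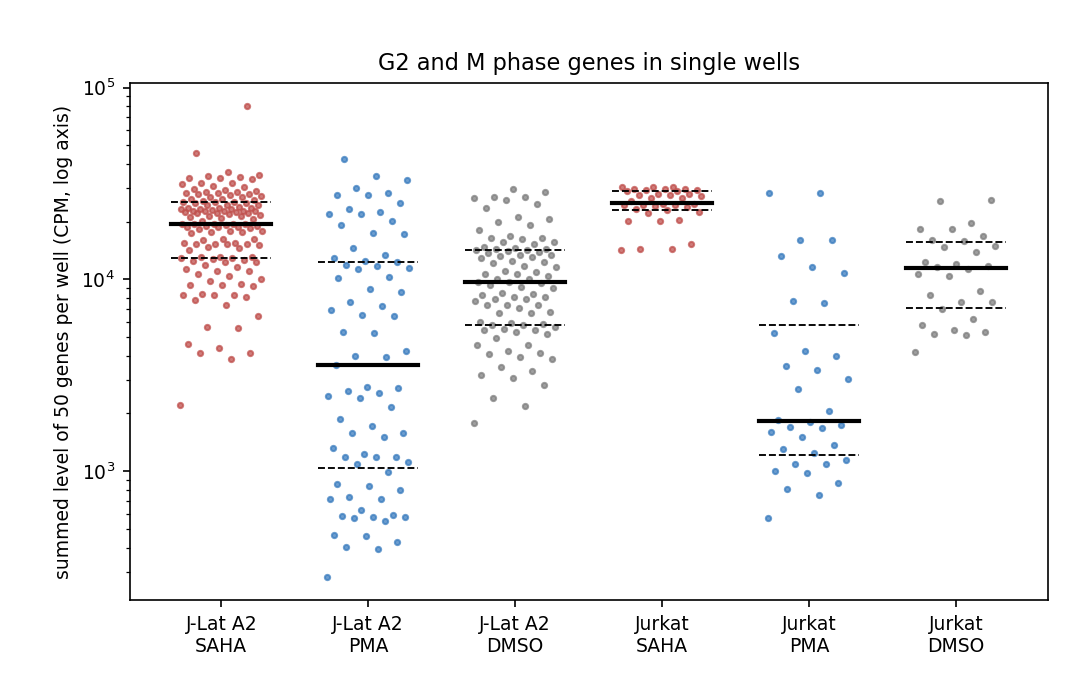
Summed level of the 50 genes in each kept well (y axis, CPM, log axis) by group, with the median as a solid line and the quartiles as dashed lines. PMA wells reach from far below the DMSO wells (282 CPM in J-Lat A2, 574 CPM in Jurkat) up to DMSO levels and beyond, while Jurkat SAHA wells lie between 14308 and 30369 CPM.

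The number of members detected in a well, with each well thinned to 100000 counts, gave the same order. Its median was 43 of 50 with SAHA, 20 with PMA and 37 with DMSO in J-Lat A2, and 48 with SAHA, 17 with PMA and 42.5 with DMSO in Jurkat. Without thinning the medians were 42, 21 and 39 in J-Lat A2 and 48, 18.5 and 43.5 in Jurkat. Thinning left out 18, 2 and 3 shallower J-Lat A2 wells with SAHA, PMA and DMSO and 0 Jurkat wells. The 66 J-Lat A2 SAHA wells left out had a median total of 12828 counts. Those with at least 1000 counts had a median of 6.5 members detected, against 42 in the kept wells, and a module median of 21973 CPM (600 to 81102 CPM), against 19448 CPM in the kept wells.

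**Figure D5:**
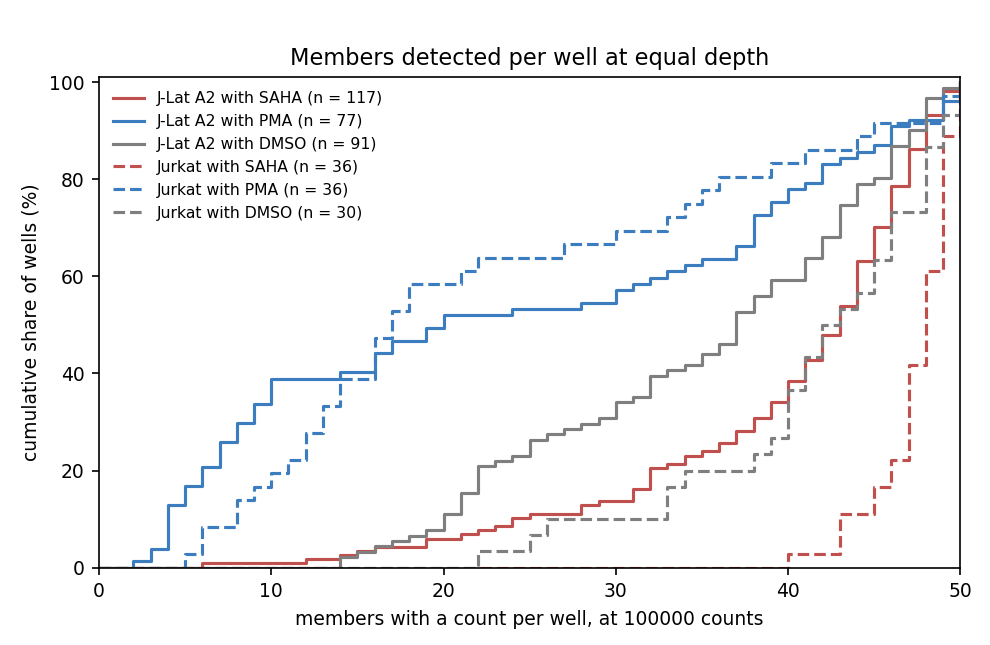
Cumulative share of wells (y axis, %) by the number of the 50 members with a count at 100000 counts per well (x axis), J-Lat A2 solid and Jurkat dashed. The PMA lines rise at the left, with medians of 20 and 17 members, and the SAHA lines at the right, with medians of 43 and 48.

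The degree to which members varied together over wells is described next. For each gene the Spearman correlation of its CPM with the sum of the other members was taken over the wells of a group, which share plates and total depth. Its median over the 50 genes in J-Lat A2 was 0.37 with SAHA, 0.75 with PMA (79 wells) and 0.54 with DMSO (94 wells). In Jurkat it was 0.22 with SAHA (36 wells), 0.70 with PMA (36 wells) and 0.56 with DMSO (30 wells). Above 0.5 were 4, 46 and 26 of the 50 genes in J-Lat A2, and 2, 43 and 26 in Jurkat. HMGB2 was the most closely tied member with PMA in both lines (0.92 and 0.89), and TMPO the least with SAHA in J-Lat A2 (-0.06). The summed level of the 30 S phase genes ran against the module in DMSO wells (Spearman -0.49 in J-Lat A2 and -0.80 in Jurkat) and along with it in PMA wells (0.56 and 0.74). With SAHA the values were -0.36 and -0.04. Both sums are shares of the same total. The module level had Spearman correlations of -0.01 with SAHA and -0.15 with PMA with the reads of the integrated construct in J-Lat A2 wells. Its correlation with the total count lay between -0.08 (J-Lat A2 with DMSO) and 0.40 (Jurkat with PMA) in the 6 groups. In J-Lat A2 with PMA it was 0.03. The correlation with the number of genes detected lay between 0.10 (Jurkat with DMSO) and 0.50 (J-Lat A2 with PMA). It was 0.48 in Jurkat with SAHA and 0.38 in Jurkat with PMA.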

How the data were processed

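Single sorted cells of 2 lines were sequenced as full-length cDNA, 1 well per sample. The deposited table holds the authors' expected counts, with 1 column per well and no scaling to depth. Salmon 1.5.1, alevin and GRCh38.p13 are listed per the submitters' processing notes, with no role or order. No source used here states the annotation, strand use, read filters or how duplicates were handled. No molecular identifier is described in the labels, so counts are reads after amplification.

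Wells with a total under 1/10 of their plate's median, or with under 500 genes counted, were left out. That each well held 1 cell was not checked, and doublets were not called. Counts of the remaining wells were added up by group and batch (9 sums of 4682167 to 36603793 counts, rounded after summing) and per plate. Batches were read from plate names, P2449 and P2458 against P2769 to P2771, since the study states 2 plates and then 3. Levels are CPM of the sums, with no further scaling.

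edgeR 4.0.16 in R 4.3.3 (TMM factors 0.971 to 1.08, filterByExpr, 13560 genes tested, all 50 members among them) fitted group and batch by quasi-likelihood, with 2 residual and 7.75 prior degrees of freedom. Tests were two-sided over 8 contrasts, each adjusted by Benjamini-Hochberg over all tested genes. Counts at an unadjusted p under 0.05 are given with no share of all tested genes at that cut. The shares of called genes are no background for them. The replicate is the batch: J-Lat A2 with SAHA, J-Lat A2 with DMSO and Jurkat with DMSO have 2 sums each and share batches, which pairs them. J-Lat A2 with PMA, Jurkat with SAHA and Jurkat with PMA have 1 sum each and were assumed to vary like the others. P-values measure only the spread between batch sums, which may be technical. The test was checked on data simulated for SAHA against DMSO in J-Lat A2, with changes placed in genes of higher level. It recovered 36 of 100 genes changed 2-fold and 83 of 100 changed 4-fold, with 2 false calls. The simulated sums held no batch difference and no difference between the other groups. The false calls therefore do not give the error rate in the real data. A change that was not called may therefore have been missed. The other contrasts were not simulated. Alternatives used DESeq2 1.42.0 and limma 3.58.1 (log2 of the mean CPM + 1), other well filters, plates as units, no batch term and leaving out each sum.

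The members and lists were chosen with earlier results of these data known. Named members are the 2 of highest mean CPM in each of 9 role groups and the 6 largest called changes per contrast, plus up to 4 other G2 and M genes per contrast, and the other members are given by counts or single values. Gene positions are from GENCODE release 29 (GRCh38), promoters from RefSeq.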

Additional observations from a re-analysis of the deposited data

Results flagged for a closer look

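The plate values of 33 named members and of the module sum were examined in the 3 groups with 5 plates (SAHA and DMSO in J-Lat A2, DMSO in Jurkat). In 9 cases 1 plate lay farther from its nearest neighbour than Dixon's 95% limit allows. Chance flags about 1 in 20 groups. All 9 cases were DMSO plates.

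In J-Lat A2 with DMSO, NEK2 had 140.7 CPM on plate P2770, against 67 to 88 CPM on the other plates. BIRC5 had 416 CPM on P2771, against 274 to 294 CPM. DLGAP5 had 246 CPM on P2771, against 133.4 to 150.3 CPM. KIF20B had 146.9 CPM on P2771, against 53 to 75.5 CPM. CENPF had 299 CPM on P2769, against 152.5 to 185.9 CPM. LBR had 289.9 CPM on P2769, against 331 to 346 CPM.

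In Jurkat with DMSO, where a plate sum holds 6 wells, CENPE had 317 CPM on P2771, against 42.6 to 90.1 CPM on the other plates. CKAP2 had 436 CPM on P2771, against 166.6 to 235.4 CPM. HJURP had 57.2 CPM on P2770, against 119.5 to 144.4 CPM.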

How the results depend on the processing

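With equal weight per well (limma), 0 members were called for SAHA or PMA against DMSO in either line or for PMA against SAHA in J-Lat A2, with lowest adjusted p of 0.0842 (SAHA) and 0.154 (PMA) in J-Lat A2, 0.133 and 0.136 in Jurkat and 0.101 for PMA against SAHA. The sign matched for all called members (29 of 29, 23 of 23, 3 of 3, 15 of 15 and 24 of 24). The cause was not tested. DESeq2 called 9 members for PMA in J-Lat A2, 29 for PMA in Jurkat, 39 for PMA against SAHA, 2 for J-Lat A2 against Jurkat under DMSO and 1 for the difference in the PMA response. Its calls over all genes are given with these contrasts above. The second batch alone, with plates as units, called 16 for SAHA in J-Lat A2.

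Leaving out 1 sum gave 9 to 38 calls for SAHA in J-Lat A2, 0 to 7 for PMA in J-Lat A2, 16 to 29 for SAHA in Jurkat, 6 to 24 for PMA in Jurkat, 24 to 33 for PMA against SAHA, 0 to 1 between the lines under DMSO and 0 for both differences in response. Of 94 called gene results under 15 alternatives (1410 values), 1172 kept their call, 238 lost it (94 with equal weight) and 0 reversed. With no replicate block, 10 of the 94 lost their call. Leaving out each plate, an alternative chosen after seeing the data, gave median module levels per well of 18950 to 20752 CPM with SAHA, 2742 to 3962 CPM with PMA and 9481 to 10079 CPM with DMSO in J-Lat A2, and of 24437 to 27411, 1780 to 2268 and 9530 to 12136 CPM in Jurkat. Thinned to 100000 counts, the medians were 19870, 3710 and 9400 CPM in J-Lat A2 and 25340, 1905 and 11310 CPM in Jurkat. Some genes were seen in few wells: CENPA had at least 1 count in 33.3% of J-Lat A2 wells with SAHA, and the part of depth in this was not tested.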
